A study of Mus musculus with 8 samples.

Results

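Innate receptors for microbial patterns, sugars and antibody were followed in interstitial leukocytes of the mouse lung, a white blood cell fraction obtained by collagenase digestion and a Percoll gradient. The genes were chosen by symbol alone: Toll-like receptors (Tlr), C-type lectins (Clec and Cd209), Siglecs, Fc receptors (Fcgr and Fcer), TREM receptors and the leukocyte and paired immunoglobulin-like receptors (Lilr, Pira and Pirb). Of 45 such genes with a probe, 41 had a value on all 8 arrays, out of 11597 genes that did, and Cd209d, Fcer1a, Pira2 and Tlr3 lacked 1 or 2 values. The 41 comprised 7 Toll-like receptors, 18 C-type lectin genes, 2 Siglecs, 6 Fc receptor genes, 5 TREM receptors and 3 leukocyte or paired immunoglobulin-like receptors. Clec3b, Clec11a and Clec16a carry the lectin symbol without being known as pathogen receptors.

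These receptors let macrophages, dendritic cells and neutrophils sense microbes, dying cells and antibody-coated material, and in the lung alveolar and interstitial macrophages also take up inhaled particles such as silica. Toll-like receptors signal through adaptors with a TIR domain to NF-kB and interferon regulatory factors. Many lectins, Fc receptors and TREM receptors signal through ITAM motifs, in their own tails or in the partner chains Fcer1g and Tyrobp (DAP12), which recruit the kinase Syk, whereas receptors with ITIM motifs recruit phosphatases such as Ptpn6 and Inpp5d.

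There were 4 groups of 2 arrays: RagKO silica, RagKO saline, WT silica and WT saline. RagKO mice were Rag1-/- animals, which lack mature T and B cells, and were given 300 µg of anti-NK1.1 antibody per injection to deplete natural killer (NK) cells, before the first instillation and weekly after it. WT mice were C57Bl/6 without the antibody, so gene deletion and antibody cannot be told apart, and the labels name no strain for the RagKO mice. All mice were 6 to 8 weeks old and received, under ketamine, 4 weekly doses of 25 µl into the nose, with 1 mg of crystalline silica per dose in the silica groups and saline alone in the others. The arrays are called biological replicates without the number of mice behind each, so each p-value reflects the spread among these arrays only, and 2 arrays in each group limit precision.

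Each value below is the log2 ratio of leukocyte RNA to a universal mouse reference RNA on the same array, from deposited ratios read as log10, since that base fits their range and no source states it. If the ratios were log2, every log2 value would shrink by the factor 3.3219 and no test would change. Ratios compare samples for 1 gene and say nothing of levels between genes, and without spot intensities a ratio near background could not be recognised. Replicate arrays correlated across genes with r of 0.9795 to 0.9904. Sex-linked transcripts differed within and between the groups. The Xist probe with the wider range read -2.71 and 2.22 in RagKO silica, -2.47 and -2.64 in RagKO saline, 0.82 and 0.48 in WT silica and -0.24 and -0.21 in WT saline leukocytes. The Y-linked Eif2s3y read 2.42 and -2.22 in RagKO silica, 2.9 and 2.6 in RagKO saline, 0.34 and 1.05 in WT silica and 2.32 and 2.27 in WT saline leukocytes. The 2 RagKO silica arrays thus stood opposite each other, and the WT silica and WT saline arrays also differed. The labels give no sex, and its part in the genotype and silica differences was not tested. Receptor calls that were lost without 1 of the RagKO silica arrays are given with that value. On the list of 6 T cell markers the mean log2 ratio was -0.93 and -0.99 in RagKO silica, -0.86 and -0.81 in RagKO saline, 1.37 and 1.44 in WT silica and 1.41 and 1.49 in WT saline leukocytes. On the 7 measured NK cell markers it was 2.59 and 2.09 in RagKO silica, 2.7 and 2.77 in RagKO saline, 4.37 and 4.32 in WT silica and 3.87 and 3.87 in WT saline leukocytes. Lung structural transcripts were present too, with a mean for 11 epithelial markers of 2.07 and 1.9 in RagKO silica, 2.27 and 2.33 in RagKO saline, 1.96 and 2.14 in WT silica and 1.18 and 1.27 in WT saline leukocytes. Fewer cells of a type and less RNA per cell cannot be told apart in such bulk samples.

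**Figure D1:**
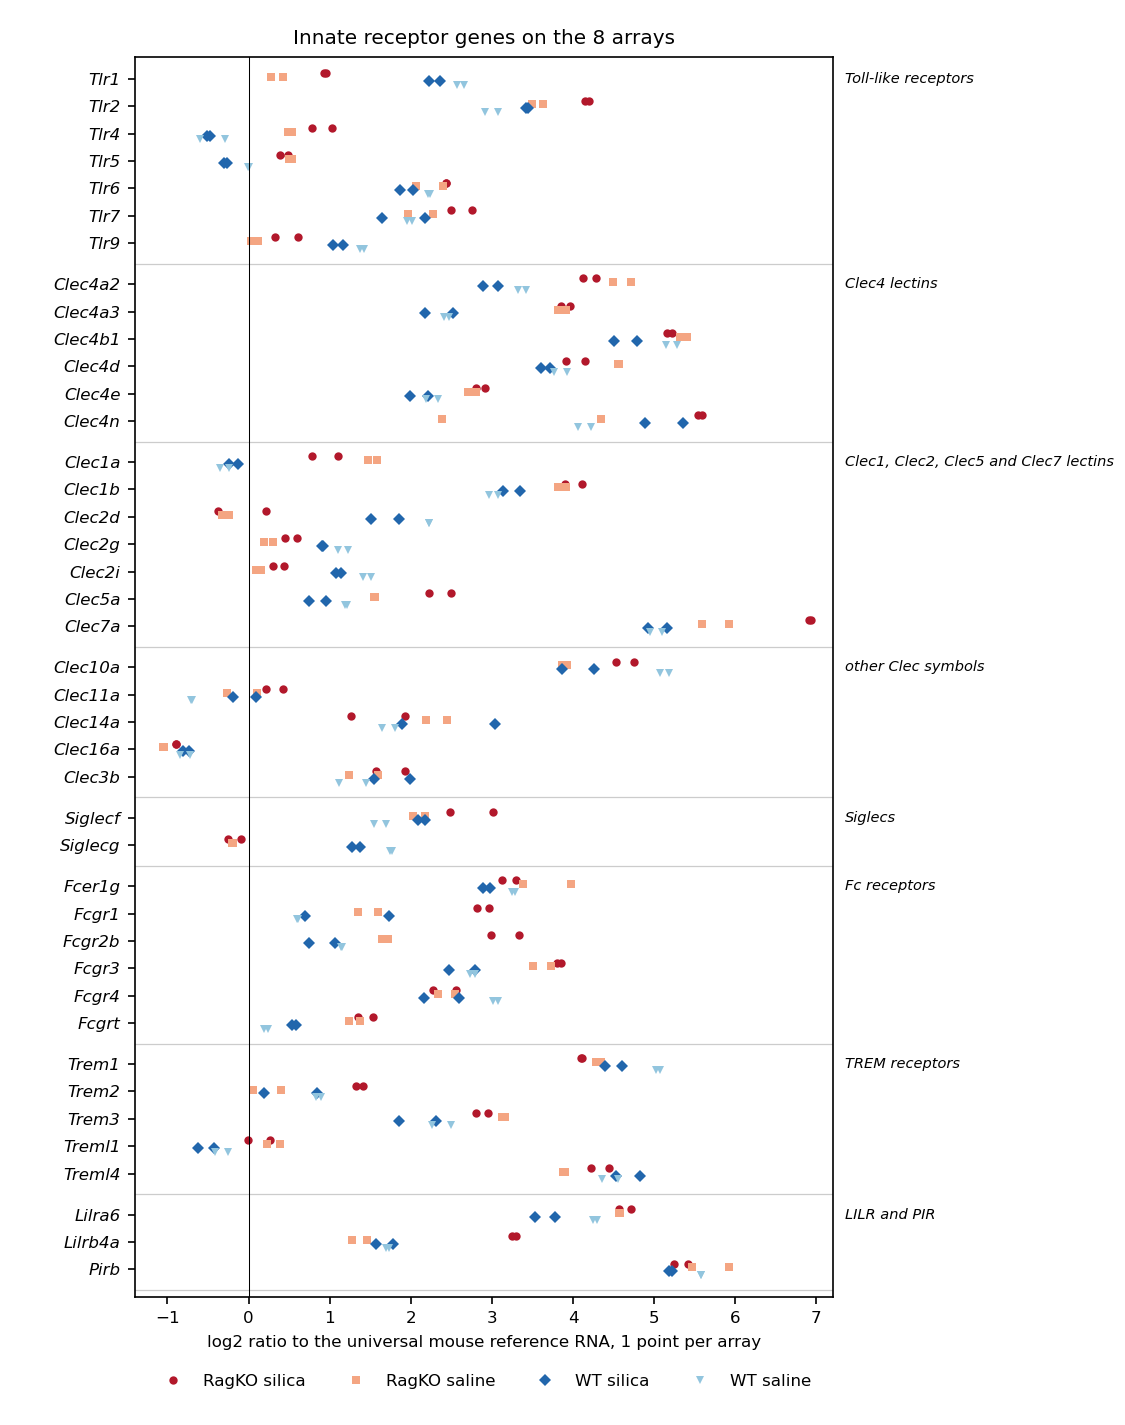
Log2 ratio to the reference RNA (x axis) of the 41 receptor genes (rows, by family), with 1 point per array and colour and shape for the group. The RagKO silica points of Lilrb4a (3.25 and 3.3), Fcgr2b (2.99 and 3.34) and Clec7a (6.91 and 6.93) lie to the right of the other 6 arrays, and the RagKO points of Tlr1, Siglecg and Clec2d lie to the left of all WT points.

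The receptor genes differed widely between the genotypes, but so did the genome. In RagKO against WT leukocytes after silica, 25 of 41 rose and 8 fell at an adjusted p under 0.05 (limma, Benjamini-Hochberg over all 11597 genes), 80.5% of them, where 60.1% of all genes were called, 33.7% higher and 26.4% lower. After saline 20 rose and 13 fell, again 80.5%, against 66.2% of all genes, 37.0% higher and 29.2% lower. The median difference of the receptor genes was 0.61 after silica and 0.35 after saline, and that of all genes 0.07 and 0.1. After silica there were 32 calls without RagKO silica replicate 1, with those of Clec4d and Clec14a lost, and 29 without RagKO silica replicate 2, with those of Clec10a, Clec2g, Siglecf and Tlr7 lost. The same 19 receptors were higher in RagKO after both exposures, 7 were lower after both, and Clec10a, Lilrb4a and Trem2 were higher after silica and lower after saline. The share of all genes with such joint patterns was not computed, so these counts only describe the receptors. Among the 19, the saline call was lost under 8 alternatives for Lilra6, 6 for Clec5a, 2 for Siglecf and 1 for Fcgr1. The saline call of Fcgr2b was lost under none but rested on 1 of its 2 probes, at 1.14, while the other gave -0.06.

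Silica moved more receptor genes in RagKO than in WT leukocytes. In RagKO 14 rose and 3 fell, 41.5%, where 32.7% of all genes were called, 16.8% higher and 15.9% lower. In WT 2 rose and 7 fell, 22.0%, which is near the 19.7% of all genes called (11.5% higher and 8.21% lower). That WT count was 2 without WT saline replicate 1 or without WT saline replicate 2, and 4 without WT silica replicate 2. Clec10a was the only WT call that held under every alternative analysis, and with quantile normalization 1 receptor rose and 15 fell. The silica effect itself differed between genotypes for 14 receptors, more positive in RagKO for 12 and more negative for 2, which is 34.1% against 23.3% of all genes, 11.0% more positive and 12.3% more negative. It differed for 7 receptors without WT saline replicate 1 or without WT saline replicate 2, and for 9 without WT silica replicate 2. The median silica difference of the 41 was 0.2 in RagKO and -0.2 in WT, against -0.03 and -0.01 over all genes. Without RagKO silica replicate 1 there were 13 calls for silica in RagKO and 10 for the difference between genotypes, and without RagKO silica replicate 2 there were 15 and 14. Silica calls in RagKO were lost for Clec1a, Clec4a2, Tlr9 and Treml4 without replicate 1 and for Siglecf and Tlr4 without replicate 2.

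**Figure D2:**
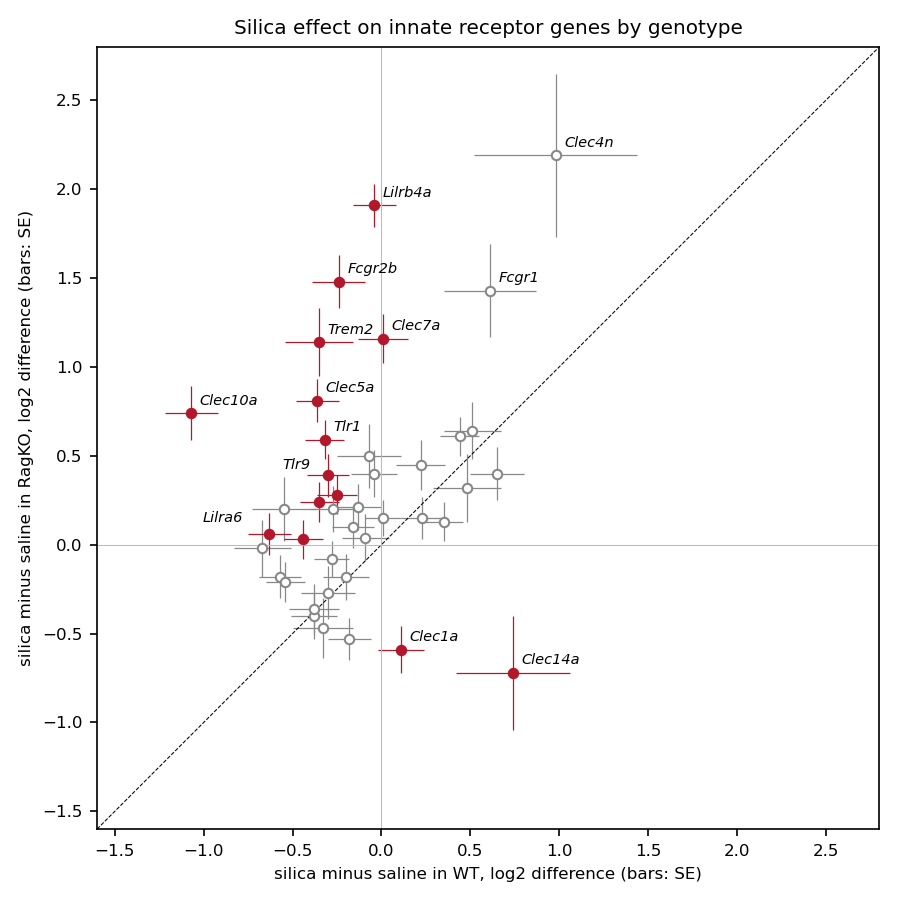
Silica minus saline in RagKO (y axis) against the same difference in WT (x axis), in log2 units, for the 41 receptor genes with SE bars, and a dashed line of equal effect. Filled red points are the 14 genes whose silica effect differed between genotypes (Clec2g, Clec2i and Siglecg are filled without a name). Lilrb4a lies at 1.91 in RagKO and -0.04 in WT, and Clec10a at 0.74 and -1.07.

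Among the Toll-like receptors, Tlr1 and Tlr9 were lower in RagKO leukocytes after both exposures, and Tlr2, Tlr4 and Tlr5 were higher after both. Tlr1, which pairs with Tlr2 to sense bacterial lipopeptides, read 0.93 and 0.96 in RagKO silica, 0.28 and 0.43 in RagKO saline, 2.36 and 2.23 in WT silica and 2.66 and 2.57 in WT saline leukocytes. All RagKO arrays lay below all WT arrays, with a difference of -1.35 (SE 0.11, adjusted p = 5.29e-06) after silica and -2.26 (SE 0.11, adjusted p = 1.34e-07) after saline, the second of these 4.8-fold lower. Within RagKO, however, Tlr1 rose with silica by 0.59 (SE 0.11, adjusted p = 0.00313), and in WT its difference was -0.32 (SE 0.11, adjusted p = 0.0701), which left a genotype difference in the silica effect of 0.91 (SE 0.16, adjusted p = 0.00267). The Tlr1 rise was 0.6 or 0.58 without RagKO silica replicate 1 or 2. Tlr9, the endosomal sensor of CpG DNA, had the same order of groups: 0.61 and 0.32 in RagKO silica, 0.03 and 0.12 in RagKO saline, 1.04 and 1.16 in WT silica and 1.42 and 1.37 in WT saline leukocytes. It was lower in RagKO, with a difference of -0.63 (SE 0.12, adjusted p = 0.00137) after silica and -1.32 (SE 0.12, adjusted p = 6.88e-06) after saline. The Tlr9 rise with silica in RagKO, 0.39 (SE 0.12, adjusted p = 0.0347), was lost under 6 alternatives and was 0.25 (adjusted p = 0.205) without RagKO silica replicate 1. The larger silica effect in RagKO, 0.69 (SE 0.17, adjusted p = 0.0182), was lost under 5, among them leaving out RagKO silica replicate 1, which gave 0.54 (adjusted p = 0.0515).

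Tlr2, the shared partner of Tlr1 and Tlr6, was the only Toll-like receptor called for silica in both genotypes. It read 4.2 and 4.15 in RagKO silica, 3.49 and 3.63 in RagKO saline, 3.42 and 3.45 in WT silica and 3.07 and 2.91 in WT saline leukocytes. Every silica array lay above the saline arrays of its genotype in RagKO and in WT. Silica raised it by 0.61 (SE 0.11, adjusted p = 0.00267) in RagKO, with 0.59 or 0.64 without RagKO silica replicate 1 or 2, and by 0.44 (SE 0.11, adjusted p = 0.0203) in WT, a WT call lost when any single WT array was left out, with 0.36 (adjusted p = 0.192) without WT saline replicate 2. The genotype difference of the silica effects, 0.17 (SE 0.16, adjusted p = 0.478), did not pass. Tlr4, the receptor for lipopolysaccharide, read 0.78 and 1.03 in RagKO silica, 0.49 and 0.53 in RagKO saline, -0.51 and -0.47 in WT silica and -0.29 and -0.6 in WT saline leukocytes. All RagKO arrays were above all WT arrays, by 1.4 (SE 0.13, adjusted p = 1.4e-05) after silica and 0.96 (SE 0.13, adjusted p = 0.00011) after saline. The Tlr4 silica rise in RagKO of 0.4 (SE 0.13, adjusted p = 0.0445) was lost under 8 alternatives and was 0.27 (adjusted p = 0.21) without RagKO silica replicate 2. The flagellin receptor Tlr5 was higher in RagKO by 0.72 (SE 0.1, adjusted p = 0.000178) after silica and 0.51 (SE 0.1, adjusted p = 0.00126) after saline. Tlr7, the endosomal sensor of single-stranded RNA, read 2.5 and 2.76 in RagKO silica, 1.96 and 2.28 in RagKO saline, 2.18 and 1.65 in WT silica and 2.02 and 1.95 in WT saline leukocytes. After silica it and Tlr6 were higher in RagKO, Tlr7 by 0.71 (SE 0.18, adjusted p = 0.0062) and Tlr6 by 0.49 (SE 0.13, adjusted p = 0.00811), and after saline their differences were 0.14 and 0.01. For neither gene did the change of the genotype difference with exposure pass its test (adjusted p = 0.13 for Tlr7 and 0.0857 for Tlr6). The Tlr7 call was lost without RagKO silica replicate 2, at 0.58 (adjusted p = 0.0521), and without WT silica replicate 2, at 0.45 (adjusted p = 0.0542). The Tlr6 call was lost without WT silica replicate 1, at 0.41 (adjusted p = 0.0545).

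The Clec4 lectins, a neighbouring group of genes that includes the Mincle and Dectin-2 receptors, were higher in RagKO for 5 of 6 members after silica and 4 of 6 after saline, and none was lower, where 33.7% and 37.0% of all genes were higher. Clec4a3 read 3.85 and 3.96 in RagKO silica, 3.81 and 3.92 in RagKO saline, 2.52 and 2.18 in WT silica and 2.47 and 2.41 in WT saline leukocytes. Clec4a2 (DCIR), an inhibitory receptor of myeloid cells, read 4.12 and 4.28 in RagKO silica, 4.72 and 4.49 in RagKO saline, 3.08 and 2.89 in WT silica and 3.42 and 3.32 in WT saline leukocytes. For both genes all 4 RagKO arrays lay above all 4 WT arrays. The Clec4a3 difference was 1.55 (SE 0.13, adjusted p = 6.07e-06) after silica and 1.42 (SE 0.13, adjusted p = 5.75e-06) after saline, and that of Clec4a2 was 1.22 (SE 0.13, adjusted p = 2.39e-05) and 1.24 (SE 0.13, adjusted p = 1.26e-05). Clec4a2 fell with silica in RagKO, with a difference of -0.4 (SE 0.13, adjusted p = 0.0338), a fall lost under 7 alternatives, with -0.32 (adjusted p = 0.164) without RagKO silica replicate 1 and -0.24 (adjusted p = 0.205) with quantile normalization. These 2 genes are close in sequence, and the signal of 1 probe may include RNA of the other. Clec4e (Mincle), which binds mycobacterial glycolipid, read 2.91 and 2.8 in RagKO silica, 2.8 and 2.71 in RagKO saline, 2.21 and 1.99 in WT silica and 2.33 and 2.19 in WT saline leukocytes. Its RagKO arrays lay above all WT arrays, and it was higher in RagKO by 0.75 (SE 0.12, adjusted p = 0.000354) after silica and 0.5 (SE 0.12, adjusted p = 0.00393) after saline. Its partner Clec4d (MCL) read 4.15 and 3.92 in RagKO silica, 4.56 and 4.57 in RagKO saline, 3.61 and 3.72 in WT silica and 3.93 and 3.76 in WT saline leukocytes. The RagKO saline pair was highest, and RagKO silica replicate 2 lay level with WT saline replicate 1. Clec4d was higher in RagKO by 0.72 (SE 0.12, adjusted p = 0.000397) after saline and fell with silica in RagKO, with a difference of -0.53 (SE 0.12, adjusted p = 0.00805). After silica its genotype difference of 0.37 (SE 0.12, adjusted p = 0.0217) was 0.25 (adjusted p = 0.136) without RagKO silica replicate 1 and 0.32 (adjusted p = 0.105) without WT silica replicate 1.

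Clec4n (Dectin-2), a receptor for fungal mannan that signals through Fcer1g, had the largest silica rise of the 41 in RagKO and also the poorest replicates. It read 5.54 and 5.59 in RagKO silica, 4.35 and 2.39 in RagKO saline, 5.36 and 4.89 in WT silica and 4.06 and 4.22 in WT saline leukocytes. The silica arrays lay above the saline arrays in both genotypes, but the RagKO saline pair was far more split than any other. The silica difference was 2.19 (SE 0.46, adjusted p = 0.0057) in RagKO and 0.98 (SE 0.46, adjusted p = 0.163) in WT, and the genotype difference between them was 1.21 (SE 0.65, adjusted p = 0.213). The RagKO value was 2.21 or 2.16 without RagKO silica replicate 1 or 2, but 3.17 without RagKO saline replicate 1 and 1.21 without RagKO saline replicate 2. Clec4b1 (DCAR), an activating relative, read 5.16 and 5.22 in RagKO silica, 5.32 and 5.41 in RagKO saline, 4.79 and 4.5 in WT silica and 5.28 and 5.15 in WT saline leukocytes. The WT silica pair lay below the other 6 arrays. Clec4b1 was higher in RagKO after silica by 0.54 (SE 0.12, adjusted p = 0.0036) and fell with silica in WT, with a difference of -0.57 (SE 0.12, adjusted p = 0.0104), a fall lost without WT saline replicate 1, at -0.51 (adjusted p = 0.0955), or without WT silica replicate 2, at -0.43 (adjusted p = 0.0803).

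**Figure D3:**
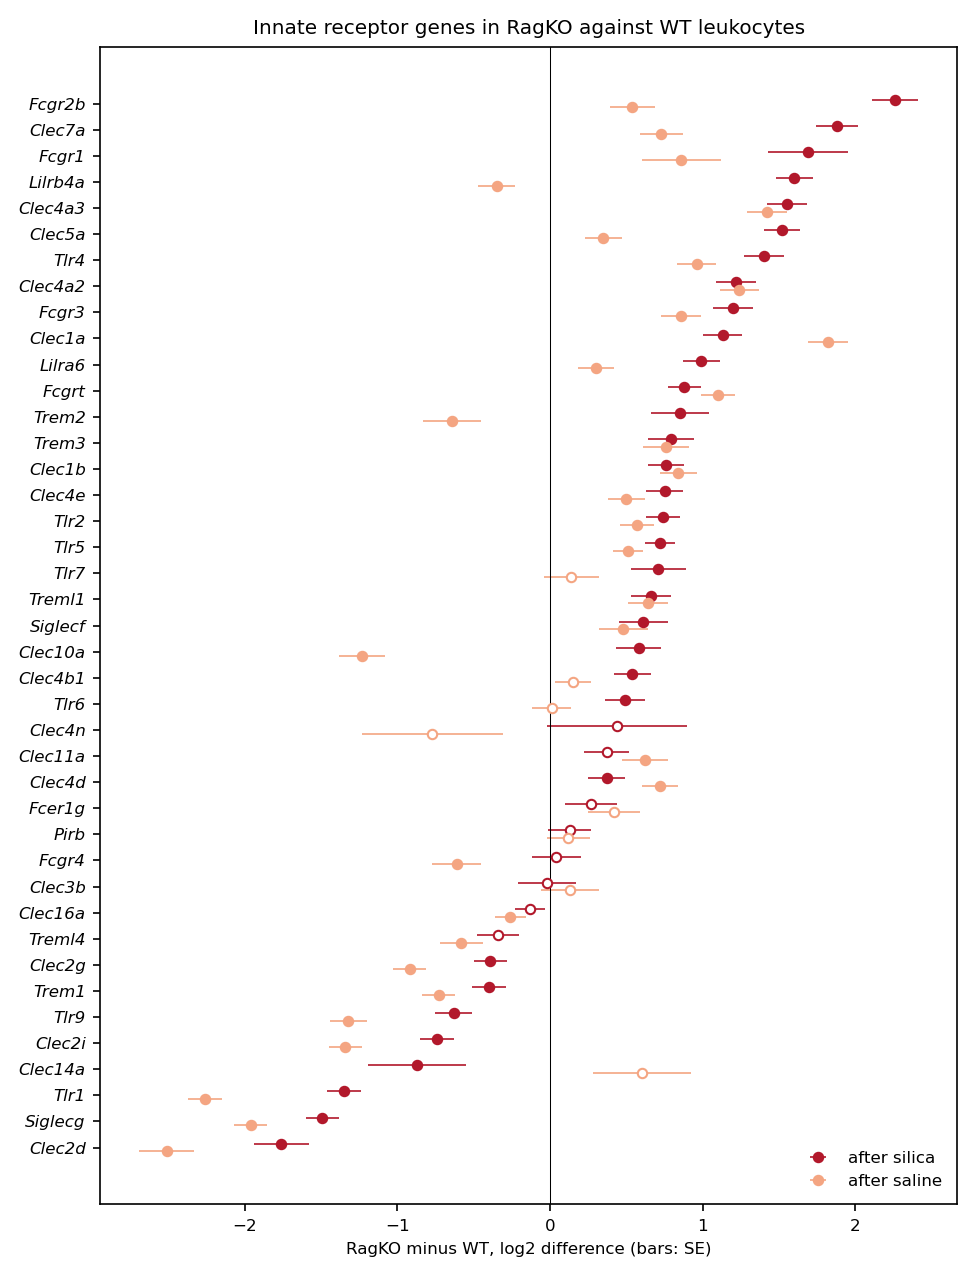
RagKO minus WT in log2 units (x axis, bars SE) for each receptor gene (rows, ordered by the difference after silica), in dark red after silica and in light orange after saline, filled where the adjusted p was under 0.05. Fcgr2b is at the top with 2.26 after silica and 0.54 after saline, and Clec2d at the bottom with -1.76 and -2.51.

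Clec7a (Dectin-1), the beta-glucan receptor that signals through Syk, was higher in RagKO leukocytes and rose further with silica in RagKO. It read 6.91 and 6.93 in RagKO silica, 5.59 and 5.92 in RagKO saline, 5.16 and 4.92 in WT silica and 4.95 and 5.1 in WT saline leukocytes. The RagKO silica pair stood above every other array and the WT silica and saline arrays overlapped. RagKO exceeded WT by 1.88 (SE 0.14, adjusted p = 2.82e-06) after silica, which is 3.67-fold, and by 0.73 (SE 0.14, adjusted p = 0.000943) after saline. Silica raised it by 1.16 (SE 0.14, adjusted p = 0.000299) in RagKO, with 0.01 in WT, and the difference between those effects was 1.15 (SE 0.2, adjusted p = 0.0025). Without RagKO silica replicate 1 or 2 the RagKO silica difference was 1.18 or 1.15.

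Clec5a (MDL-1), a DAP12-coupled receptor of monocytes and macrophages, followed Clec7a with 2.23 and 2.5 in RagKO silica, 1.56 and 1.55 in RagKO saline, 0.95 and 0.75 in WT silica and 1.22 and 1.19 in WT saline leukocytes. The RagKO silica pair was again highest, and RagKO exceeded WT by 1.52 (SE 0.12, adjusted p = 5.44e-06) after silica and 0.35 (SE 0.12, adjusted p = 0.0291) after saline, a saline call lost under 6 alternatives, with 0.33 (adjusted p = 0.124) without WT saline replicate 2. Silica raised it by 0.81 (SE 0.12, adjusted p = 0.00116) in RagKO, with -0.36 (SE 0.12, adjusted p = 0.0714) in WT, and the effects differed by 1.17 (SE 0.18, adjusted p = 0.00138). This rise was 0.95 or 0.67 without RagKO silica replicate 1 or 2. When a second Clec5a probe without a value on RagKO saline replicate 1 was averaged in, the difference between the effects was 0.72 (adjusted p = 0.083) and the RagKO silica difference 0.48 (adjusted p = 0.0803). That probe read 0.95 and 1.2 in RagKO silica, 0.28 in RagKO saline replicate 2, -0.12 and -0.28 in WT silica and -0.1 and -0.05 in WT saline leukocytes, so averaging it shifted the RagKO saline replicates unequally.

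The neighbouring Clec1a and Clec1b were higher in RagKO throughout. Clec1a (MelLec), which in mice binds fungal melanin, read 0.78 and 1.1 in RagKO silica, 1.47 and 1.58 in RagKO saline, -0.24 and -0.13 in WT silica and -0.35 and -0.24 in WT saline leukocytes. Its RagKO arrays lay above all WT arrays, by 1.13 (SE 0.13, adjusted p = 4.45e-05) after silica and 1.82 (SE 0.13, adjusted p = 1.13e-06) after saline. It fell with silica in RagKO, with a difference of -0.59 (SE 0.13, adjusted p = 0.00732), a fall that was -0.42 (adjusted p = 0.0527) without RagKO silica replicate 1. Clec1b (CLEC-2), the podoplanin receptor of platelets, read 3.9 and 4.11 in RagKO silica, 3.81 and 3.92 in RagKO saline, 3.35 and 3.14 in WT silica and 2.96 and 3.08 in WT saline leukocytes, with all RagKO arrays above all WT arrays. It was higher in RagKO by 0.76 (SE 0.12, adjusted p = 0.000453) after silica and 0.84 (SE 0.12, adjusted p = 0.000173) after saline, without a call for silica in either genotype.

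The Clec2 genes moved the other way. Clec2d (Clr-b), a ligand for inhibitory receptors of NK cells, read -0.38 and 0.22 in RagKO silica, -0.33 and -0.24 in RagKO saline, 1.85 and 1.51 in WT silica and 2.23 and 2.22 in WT saline leukocytes. Every RagKO array lay below every WT array, with a difference of -1.76 (SE 0.18, adjusted p = 2.45e-05) after silica and -2.51 (SE 0.18, adjusted p = 1.36e-06) after saline, the second of these 5.7-fold lower. Clec2i, another ligand of the Nkrp1 receptors, read 0.44 and 0.3 in RagKO silica, 0.15 and 0.09 in RagKO saline, 1.08 and 1.14 in WT silica and 1.41 and 1.51 in WT saline leukocytes, again with every RagKO array below every WT array. It was lower in RagKO, with a difference of -0.74 (SE 0.11, adjusted p = 0.000211) after silica and -1.34 (SE 0.11, adjusted p = 2.53e-06) after saline. Clec2g was lower too, with a difference of -0.39 (SE 0.11, adjusted p = 0.012) and -0.92 (SE 0.11, adjusted p = 4e-05). Clec2g and Clec2i resemble each other in sequence. The Clec2g difference after silica was -0.31 (adjusted p = 0.0728) without RagKO silica replicate 2. Clec2i fell with silica in WT, with a difference of -0.35 (SE 0.11, adjusted p = 0.0451), a call lost when any single WT array was left out (-0.3 with adjusted p = 0.279 without WT saline replicate 2).

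Clec10a, the galactose-binding lectin MGL1 of macrophages and dendritic cells, was the only receptor called for silica in both genotypes with opposite directions. It read 4.53 and 4.75 in RagKO silica, 3.93 and 3.87 in RagKO saline, 4.26 and 3.86 in WT silica and 5.19 and 5.07 in WT saline leukocytes. Silica arrays were above saline arrays in RagKO and below them in WT. Silica raised Clec10a by 0.74 (SE 0.15, adjusted p = 0.00416) in RagKO and lowered it, with a difference of -1.07 (SE 0.15, adjusted p = 0.00108) in WT, and the difference between these effects was 1.81 (SE 0.21, adjusted p = 0.000354). RagKO was higher than WT after silica by 0.58 (SE 0.15, adjusted p = 0.00621) and lower after saline, with a difference of -1.23 (SE 0.15, adjusted p = 3.74e-05). The RagKO silica rise was 0.85 or 0.63 without RagKO silica replicate 1 or 2. The genotype difference after silica was 0.47 (adjusted p = 0.0505) without RagKO silica replicate 2 and 0.38 (adjusted p = 0.0557) without WT silica replicate 2. Clec14a, a vascular endothelial lectin, read 1.26 and 1.93 in RagKO silica, 2.19 and 2.45 in RagKO saline, 1.89 and 3.04 in WT silica and 1.8 and 1.64 in WT saline leukocytes, and its WT silica pair was widely split. It was lower in RagKO after silica, with a difference of -0.87 (SE 0.32, adjusted p = 0.0382), a call lost under 7 alternatives, with -0.53 (adjusted p = 0.253) without RagKO silica replicate 1 and -0.29 (adjusted p = 0.35) without WT silica replicate 2. Its silica differences were -0.72 in RagKO (SE 0.32, adjusted p = 0.107) and 0.74 in WT (SE 0.32, adjusted p = 0.132), neither called. Its silica effect in RagKO was lower than in WT, with a difference of -1.47 (SE 0.45, adjusted p = 0.0414), which became -0.89 (adjusted p = 0.0856) without WT silica replicate 2 and -1.13 (adjusted p = 0.133) without RagKO silica replicate 1. On the 9 endothelial markers, whose part in this was not tested, the mean was 3.01 and 3.02 in RagKO silica, 2.96 and 3.09 in RagKO saline, 3.31 and 3.41 in WT silica and 3.01 and 3.02 in WT saline leukocytes. The endothelial markers were mixed. After silica 2 were higher and 5 lower in RagKO, where 33.7% and 26.4% of all genes were. After saline 3 were higher and 4 lower, where 37.0% and 29.2% of all genes were. With silica in RagKO 1 rose and 2 fell, where 16.8% and 15.9% of all genes did. Clec11a, a secreted growth factor, read 0.42 and 0.22 in RagKO silica, -0.26 and 0.11 in RagKO saline, 0.09 and -0.19 in WT silica and -0.71 and -0.7 in WT saline leukocytes, with the WT saline pair lowest. It was higher in RagKO after saline by 0.62 (SE 0.15, adjusted p = 0.00394) and rose with silica in WT by 0.65 (SE 0.15, adjusted p = 0.0139), which was 0.51 (adjusted p = 0.0785) without WT silica replicate 1 and also lost its call without either WT saline array. Clec3b (tetranectin, a plasma protein) passed no test. Clec16a, an intracellular protein of membrane traffic, was lower in RagKO after saline, with a difference of -0.26 (SE 0.1, adjusted p = 0.0449), a call lost under 9 alternatives.

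The 2 Siglecs, receptors for sialic acid with ITIM motifs, went in opposite directions between genotypes. Siglecg, a brake on B cell receptor signalling, read -0.25 and -0.09 in RagKO silica, -0.21 and -0.19 in RagKO saline, 1.27 and 1.37 in WT silica and 1.77 and 1.75 in WT saline leukocytes. All RagKO arrays were below all WT arrays, with a difference of -1.49 (SE 0.11, adjusted p = 2.55e-06) after silica and -1.96 (SE 0.11, adjusted p = 2.28e-07) after saline. It fell with silica in WT, with a difference of -0.44 (SE 0.11, adjusted p = 0.0184), a call lost when any single WT array was left out (-0.43 with adjusted p = 0.121 without WT saline replicate 1). On the same arrays the mean of the 3 measured B cell markers was -0.71 and -0.47 in RagKO silica, -1.01 and -1.03 in RagKO saline, 2.73 and 2.61 in WT silica and 3.3 and 3.36 in WT saline leukocytes, and their part in the Siglecg, Tlr1, Tlr9 and Clec2d differences was not tested. The markers did not move alike. Cd72 read 2.08 and 1.76 in RagKO silica, -0.02 and -0.13 in RagKO saline, 1.88 and 1.87 in WT silica and 2.47 and 2.43 in WT saline leukocytes. With silica in RagKO Cd72 rose by 2.0 (SE 0.13, adjusted p = 1.38e-05), while Ms4a1 fell, with a difference of -0.62 (SE 0.11, adjusted p = 0.00202). Ms4a1 and Cd79b were lower in RagKO after both exposures. Siglecf, known from alveolar macrophages and eosinophils, read 2.48 and 3.01 in RagKO silica, 2.03 and 2.17 in RagKO saline, 2.18 and 2.09 in WT silica and 1.69 and 1.55 in WT saline leukocytes. The RagKO silica pair was highest and the WT saline pair lowest. It was higher in RagKO by 0.61 (SE 0.16, adjusted p = 0.00817) after silica and 0.48 (SE 0.16, adjusted p = 0.024) after saline, and rose with silica in RagKO by 0.64 (SE 0.16, adjusted p = 0.0138), against 0.51 (SE 0.16, adjusted p = 0.0533) in WT. The difference after silica and the rise in RagKO rested on RagKO silica replicate 2, without which they were 0.34 (adjusted p = 0.0623) and 0.37 (adjusted p = 0.071). The difference after saline was 0.41 without RagKO saline replicate 2 (adjusted p = 0.121) or without WT saline replicate 2 (adjusted p = 0.123), and the rise in RagKO was 0.57 (adjusted p = 0.0867) without RagKO saline replicate 1 and 0.45 (adjusted p = 0.0711) with quantile normalization.

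Fcgr2b, the only inhibitory receptor for IgG, showed the largest genotype difference of the 41 after silica. The mean of its 2 probes read 2.99 and 3.34 in RagKO silica, 1.72 and 1.65 in RagKO saline, 1.07 and 0.75 in WT silica and 1.14 and 1.15 in WT saline leukocytes. The RagKO silica pair lay far above the rest, and RagKO saline lay above both WT groups. RagKO exceeded WT by 2.26 (SE 0.15, adjusted p = 1.36e-06) after silica, 4.78-fold, and by 0.54 (SE 0.15, adjusted p = 0.00803) after saline. Silica raised it by 1.48 (SE 0.15, adjusted p = 0.000115) in RagKO, with -0.24 (SE 0.15, adjusted p = 0.282) in WT, and the effects differed by 1.72 (SE 0.21, adjusted p = 0.00045). Both probes gave the silica rise in RagKO, 1.58 and 1.39, and the difference between genotypes, 1.84 and 1.60, but after saline they gave -0.06 and 1.14 for RagKO minus WT. Without RagKO silica replicate 1 or 2 the silica rise was 1.66 or 1.31.

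Fcgr1, the high-affinity activating IgG receptor, was measured by 2 probes, whose mean read 2.97 and 2.82 in RagKO silica, 1.59 and 1.35 in RagKO saline, 1.73 and 0.7 in WT silica and 0.61 and 0.6 in WT saline leukocytes. RagKO silica was highest, and WT silica replicate 1 stood apart from replicate 2. RagKO exceeded WT by 1.69 (SE 0.26, adjusted p = 0.000289) after silica and 0.86 (SE 0.26, adjusted p = 0.0128) after saline, and the second of these was 0.75 (adjusted p = 0.0913) without RagKO saline replicate 1. The Fcgr1 probes gave 2.03 and 1.35 after silica, and after saline 1.16 (adjusted p = 0.00127) and 0.57 (adjusted p = 0.0799), so the saline call rested on 1 of them. Silica raised Fcgr1 by 1.43 (SE 0.26, adjusted p = 0.00259) in RagKO, against 0.61 (SE 0.26, adjusted p = 0.126) in WT, and the difference of the effects, 0.82 (SE 0.36, adjusted p = 0.132), did not pass. The Fcgr1 rise was 1.36 or 1.5 without RagKO silica replicate 1 or 2. Fcgr3, a low-affinity activating receptor, read 3.8 and 3.85 in RagKO silica, 3.73 and 3.51 in RagKO saline, 2.79 and 2.47 in WT silica and 2.73 and 2.79 in WT saline leukocytes, with all RagKO arrays above all WT arrays. Its genotype difference was 1.2 (SE 0.13, adjusted p = 3.47e-05) after silica and 0.86 (SE 0.13, adjusted p = 0.000229) after saline. Fcgr4, a further activating receptor, read 2.56 and 2.27 in RagKO silica, 2.54 and 2.33 in RagKO saline, 2.59 and 2.16 in WT silica and 3.01 and 3.07 in WT saline leukocytes. The WT saline pair stood above the other 6 arrays, with RagKO lower than WT after saline, with a difference of -0.61 (SE 0.16, adjusted p = 0.00662) and silica lower than saline in WT, with a difference of -0.67 (SE 0.16, adjusted p = 0.0168). The genotype difference was -0.5 (adjusted p = 0.0563) without RagKO saline replicate 2, and the WT fall was -0.45 (adjusted p = 0.118) without WT silica replicate 2 and also lost its call without either WT saline array. Fcgr2b, Fcgr3, Fcgr4 and Fcer1g are neighbours in the genome, and the extracellular parts of the IgG receptors are alike, so signal shared between probes cannot be told apart.

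Fcer1g, the ITAM chain on which Fcgr1, Fcgr3, Fcgr4 and Clec4n depend, passed no test as the mean of its 2 probes. It read 3.3 and 3.12 in RagKO silica, 3.98 and 3.39 in RagKO saline, 2.98 and 2.89 in WT silica and 3.28 and 3.25 in WT saline leukocytes. The RagKO saline pair was highest and the others lay close together. Its differences were 0.27 (SE 0.17, adjusted p = 0.189) after silica and 0.42 (SE 0.17, adjusted p = 0.0519) after saline between genotypes, and -0.47 (SE 0.17, adjusted p = 0.056) with silica in RagKO. Of the single Fcer1g probes, 1 passed for the difference after saline (0.43, adjusted p = 0.0393) and the other for silica in RagKO (-0.53, adjusted p = 0.0431). The neonatal Fc receptor Fcgrt, which recycles IgG and albumin, read 1.54 and 1.35 in RagKO silica, 1.38 and 1.24 in RagKO saline, 0.53 and 0.59 in WT silica and 0.19 and 0.24 in WT saline leukocytes. All RagKO arrays were above all WT arrays, by 0.88 (SE 0.11, adjusted p = 9.37e-05) after silica and 1.1 (SE 0.11, adjusted p = 1.4e-05) after saline.

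Of the TREM receptors, Trem2 rose with silica in RagKO and Trem1 fell with it in WT. Trem2, a DAP12-coupled receptor for lipids and cell debris, read 1.41 and 1.32 in RagKO silica, 0.4 and 0.05 in RagKO saline, 0.84 and 0.19 in WT silica and 0.89 and 0.83 in WT saline leukocytes. RagKO silica was highest and RagKO saline low, and 1 of the WT silica arrays lay within the RagKO saline range. Silica raised Trem2 by 1.14 (SE 0.19, adjusted p = 0.00192) in RagKO, with -0.35 (SE 0.19, adjusted p = 0.233) in WT, and the effects differed by 1.48 (SE 0.27, adjusted p = 0.00377). The Trem2 rise was 1.09 or 1.18 without RagKO silica replicate 1 or 2. RagKO was higher than WT after silica by 0.85 (SE 0.19, adjusted p = 0.00346). After saline it was lower, with a difference of -0.64 (SE 0.19, adjusted p = 0.014), a call lost without RagKO saline replicate 2, at -0.46 (adjusted p = 0.119), or without WT saline replicate 1, at -0.61 (adjusted p = 0.0596). Trem1, which amplifies neutrophil and monocyte responses, read 4.11 and 4.1 in RagKO silica, 4.34 and 4.28 in RagKO saline, 4.61 and 4.39 in WT silica and 5.02 and 5.07 in WT saline leukocytes. All RagKO arrays were below all WT arrays and the WT saline pair was highest. It was lower in RagKO, with a difference of -0.4 (SE 0.11, adjusted p = 0.0108) after silica and -0.73 (SE 0.11, adjusted p = 0.000213) after saline, the first with -0.19 (adjusted p = 0.174) after quantile normalization and -0.29 (adjusted p = 0.0853) without WT silica replicate 1. It fell with silica in WT, with a difference of -0.54 (SE 0.11, adjusted p = 0.0084), with -0.43 (adjusted p = 0.0661) without WT silica replicate 2 and no call without either WT saline array. The mean of the 9 neutrophil markers, whose part was not tested, was 3.55 and 3.55 in RagKO silica, 3.78 and 3.86 in RagKO saline, 3.89 and 3.76 in WT silica and 3.99 and 4.1 in WT saline leukocytes. That list was mixed, with 2 markers higher and 5 lower in RagKO after silica, and likewise after saline. Of all genes 33.7% were higher and 26.4% lower after silica, and 37.0% and 29.2% after saline. In WT silica raised 1 marker, Ltf, by 1.37 (SE 0.13, adjusted p = 0.000203), and lowered 3, against 11.5% and 8.21% of all genes. Trem3, an activating relative, was higher in RagKO by 0.79 (SE 0.15, adjusted p = 0.00139) after silica and 0.76 (SE 0.15, adjusted p = 0.00137) after saline, and the platelet receptor Treml1 by 0.66 (SE 0.13, adjusted p = 0.00183) and 0.64 (SE 0.13, adjusted p = 0.00177). Treml4, which in mice sensitises cells to Tlr7 ligands, read 4.45 and 4.22 in RagKO silica, 3.9 and 3.88 in RagKO saline, 4.83 and 4.53 in WT silica and 4.36 and 4.56 in WT saline leukocytes. The RagKO saline pair lay below the other 6 arrays. It was lower in RagKO after saline, with a difference of -0.58 (SE 0.14, adjusted p = 0.00377) and rose with silica in RagKO by 0.45 (SE 0.14, adjusted p = 0.0302), a rise lost without either RagKO saline array and, at 0.34 (adjusted p = 0.169), without RagKO silica replicate 1.

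Lilrb4a (gp49B), an ITIM receptor that restrains myeloid and mast cells, had the largest difference in silica effect between genotypes. It read 3.25 and 3.3 in RagKO silica, 1.27 and 1.46 in RagKO saline, 1.78 and 1.57 in WT silica and 1.69 and 1.73 in WT saline leukocytes. The RagKO silica pair stood apart and the other 6 arrays lay between 1.27 and 1.78. Silica raised Lilrb4a by 1.91 (SE 0.12, adjusted p = 1.38e-05) in RagKO, 3.77-fold, with -0.04 in WT, and the effects differed by 1.95 (SE 0.17, adjusted p = 0.0001). Without RagKO silica replicate 1 or 2 the silica rise was 1.94 or 1.89. After silica RagKO exceeded WT by 1.6 (SE 0.12, adjusted p = 2.97e-06). The small deficit after saline, -0.35 (SE 0.12, adjusted p = 0.0246), was lost under 5 alternatives and was -0.25 (adjusted p = 0.135) without RagKO saline replicate 1. Pirb, the inhibitory paired receptor for MHC class I, passed no test and read 5.42 and 5.25 in RagKO silica, 5.92 and 5.47 in RagKO saline, 5.22 and 5.18 in WT silica and 5.58 and 5.58 in WT saline leukocytes, the silica arrays below the saline arrays in both genotypes. Lilra6, an activating-type neighbour of Pirb, read 4.72 and 4.57 in RagKO silica, 4.57 and 4.58 in RagKO saline, 3.78 and 3.53 in WT silica and 4.25 and 4.3 in WT saline leukocytes. All RagKO arrays lay above all WT arrays. It fell with silica in WT, with a difference of -0.63 (SE 0.12, adjusted p = 0.00582), which was -0.6 (adjusted p = 0.0558) without WT saline replicate 2, and was higher in RagKO after silica by 0.99 (SE 0.12, adjusted p = 6e-05). Genes of this family share much sequence, so their probes may not be separable.

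**Figure D4:**
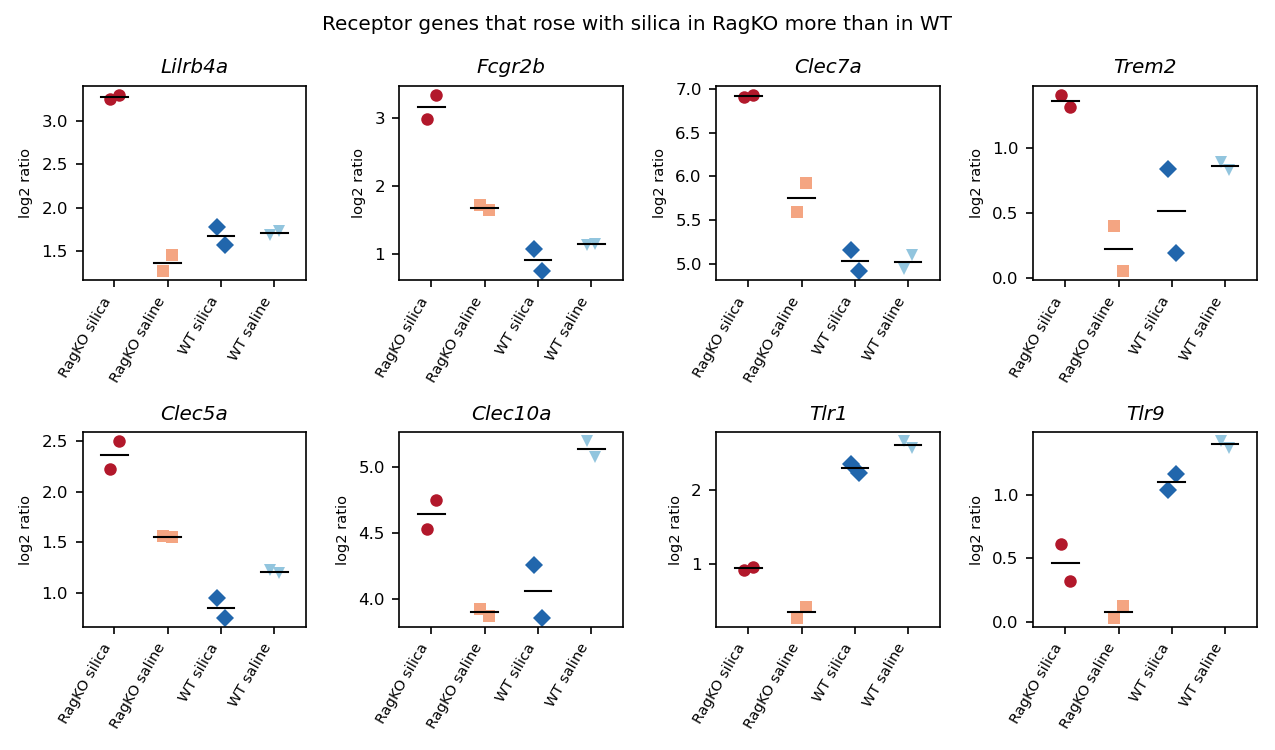
Log2 ratio to the reference RNA (y axis, own scale in each panel, not starting at 0) for the 8 receptor genes that rose with silica in RagKO and whose silica effect was larger there than in WT, with 1 point per array and the group mean as a line. Lilrb4a, Fcgr2b, Clec7a, Trem2 and Clec5a are highest in RagKO silica, while Tlr1 and Tlr9 remain below both WT groups and Clec10a below WT saline.

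These 8 genes took in receptors of different signalling classes, assigned by hand after the values were seen. Fcgr2b and Lilrb4a are inhibitory, Clec5a, Clec7a and Trem2 activate through ITAM or related motifs, Tlr1 and Tlr9 signal through a TIR domain, and Clec10a was placed in none of these classes. By class, silica in RagKO raised 6 of 16 activating, 3 of 7 inhibitory and 4 of 7 TIR-domain receptors and lowered 1, 1 and 0, where 16.8% of all genes rose and 15.9% fell, and the median difference was 0.12, 0.03 and 0.4. In WT the medians were -0.24, -0.24 and -0.27, with 0, 0 and 1 rises and 4, 1 and 0 falls, where 11.5% of all genes rose and 8.21% fell.

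Promoter sequence is given for the 3 of these 8 genes with the largest silica rise in RagKO that RefSeq's promoter table (GRCm38.p6) lists. The 8 genes were selected by that rise and a larger silica effect than in WT, so their shared direction follows from the choice. Lilrb4a and Clec10a have no entry. Each window runs from 250 bases before to 50 after the gene's start, 5′ to 3′ on the gene's strand, chr1:170976022-170976321 on the minus strand for Fcgr2b, chr6:129472730-129473029 on the minus strand for Clec7a and chr17:48346151-48346450 on the plus strand for Trem2. Capitals mark matches on either strand to GAGGAA (the core bound by the myeloid factor PU.1), to an interferon-response motif (GAAA, any 2 bases, GAAA) or to TGANTCA (the AP-1 motif).
Fcgr2b: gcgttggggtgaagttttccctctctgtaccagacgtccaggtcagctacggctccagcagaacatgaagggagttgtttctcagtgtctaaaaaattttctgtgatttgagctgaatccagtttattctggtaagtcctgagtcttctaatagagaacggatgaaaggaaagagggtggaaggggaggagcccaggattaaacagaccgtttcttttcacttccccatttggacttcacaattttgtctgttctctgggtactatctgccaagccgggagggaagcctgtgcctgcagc
Clec7a: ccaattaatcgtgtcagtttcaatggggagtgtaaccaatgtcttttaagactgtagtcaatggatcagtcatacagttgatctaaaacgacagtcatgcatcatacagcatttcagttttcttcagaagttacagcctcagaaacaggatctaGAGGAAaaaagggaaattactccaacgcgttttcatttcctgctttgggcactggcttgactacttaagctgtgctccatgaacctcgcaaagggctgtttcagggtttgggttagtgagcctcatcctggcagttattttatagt
Trem2: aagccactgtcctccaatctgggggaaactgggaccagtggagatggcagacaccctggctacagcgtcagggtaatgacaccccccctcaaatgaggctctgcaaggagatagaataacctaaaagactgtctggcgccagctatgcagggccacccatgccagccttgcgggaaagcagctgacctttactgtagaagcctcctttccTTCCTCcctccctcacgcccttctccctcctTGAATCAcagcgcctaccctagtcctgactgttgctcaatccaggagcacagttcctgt
Clec7a held GAGGAA at base -96 from its start, Trem2 held the same motif on the other strand at -40 and TGAATCA at -9, and Fcgr2b matched none of these letters. Of 33 receptor gene promoters in the table, 60.6% held GAGGAA, 15.2% the interferon-response motif and 12.1% TGANTCA, where 28.3%, 3.49% and 7.93% of all 27025 promoters did. A match describes letters and does not show binding.

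The intracellular partners of the ITAM and ITIM receptors, a list of 20 measured genes, were mostly lower in RagKO leukocytes after saline and mostly raised by silica in RagKO. After silica 5 were higher and 6 lower in RagKO, with a median of -0.07, and after saline 1 was higher and 17 lower, with a median of -0.86, where 33.7% of all genes were higher and 26.4% lower after silica, 37.0% and 29.2% after saline, and their medians were 0.07 and 0.1. With silica 12 rose and 1 fell in RagKO (median 0.75), where 16.8% of all genes rose and 15.9% fell. In WT 2 rose and 2 fell (median -0.2), 4 of 20 and so near the 19.7% of all genes called. The effect was more positive in RagKO for 14 and more negative for 0, against 11.0% and 12.3% of all genes. In WT with quantile normalization 1 rose and 5 fell, without WT saline replicate 2 there were 0 calls, and without WT silica replicate 2 there were 2. Syk, the kinase that docks on ITAM motifs, read 3.06 and 2.5 in RagKO silica, 1.46 and 1.13 in RagKO saline, 2.76 and 2.77 in WT silica and 2.4 and 2.48 in WT saline leukocytes. The RagKO saline pair was below the other 6 arrays, with a silica difference of 1.48 (SE 0.18, adjusted p = 0.000311) in RagKO and 0.32 (SE 0.18, adjusted p = 0.231) in WT. Malt1, which carries lectin signals from Syk to NF-kB, rose with silica by 2.14 (SE 0.13, adjusted p = 1.38e-05) in RagKO and 0.74 (SE 0.13, adjusted p = 0.00451) in WT, and the difference of effects was 1.4 (SE 0.19, adjusted p = 0.000819). Inpp5d (SHIP-1), the phosphatase used by Fcgr2b, rose by 1.09 (SE 0.12, adjusted p = 0.000167) in RagKO, with -0.02 (SE 0.12, adjusted p = 0.92) in WT. Tyrobp, the DAP12 chain of Trem2 and Clec5a, rose by 0.66 (SE 0.15, adjusted p = 0.00818) in RagKO, with -0.12 (SE 0.15, adjusted p = 0.623) in WT. The adaptors Blnk and Dok3 and the kinase Btk, also used by B cells, were lower in RagKO after saline, with a difference of -2.39 (SE 0.11, adjusted p = 1.14e-07), -2.84 (SE 0.17, adjusted p = 4.17e-07) and -1.93 (SE 0.1, adjusted p = 1.72e-07). After silica they were also lower, with a difference of -0.96, -1.96 and -0.84. Blnk rose with silica in RagKO by 1.07 (SE 0.11, adjusted p = 0.000166). The silica effect was more positive in RagKO by 1.44 (SE 0.16, adjusted p = 0.00031) for Blnk and 1.09 (SE 0.14, adjusted p = 0.000677) for Btk. Hcst (DAP10), a partner of NK receptors, was lower in RagKO after saline, with a difference of -1.75 (SE 0.11, adjusted p = 4.46e-07). After silica it was lower too, with a difference of -1.64 (SE 0.11, adjusted p = 1.47e-06). Hcst also fell with silica in WT, with a difference of -0.59 (SE 0.11, adjusted p = 0.00451). The B and NK cell marker means above were lower on the same RagKO arrays, and their part was not tested.

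**Figure D5:**
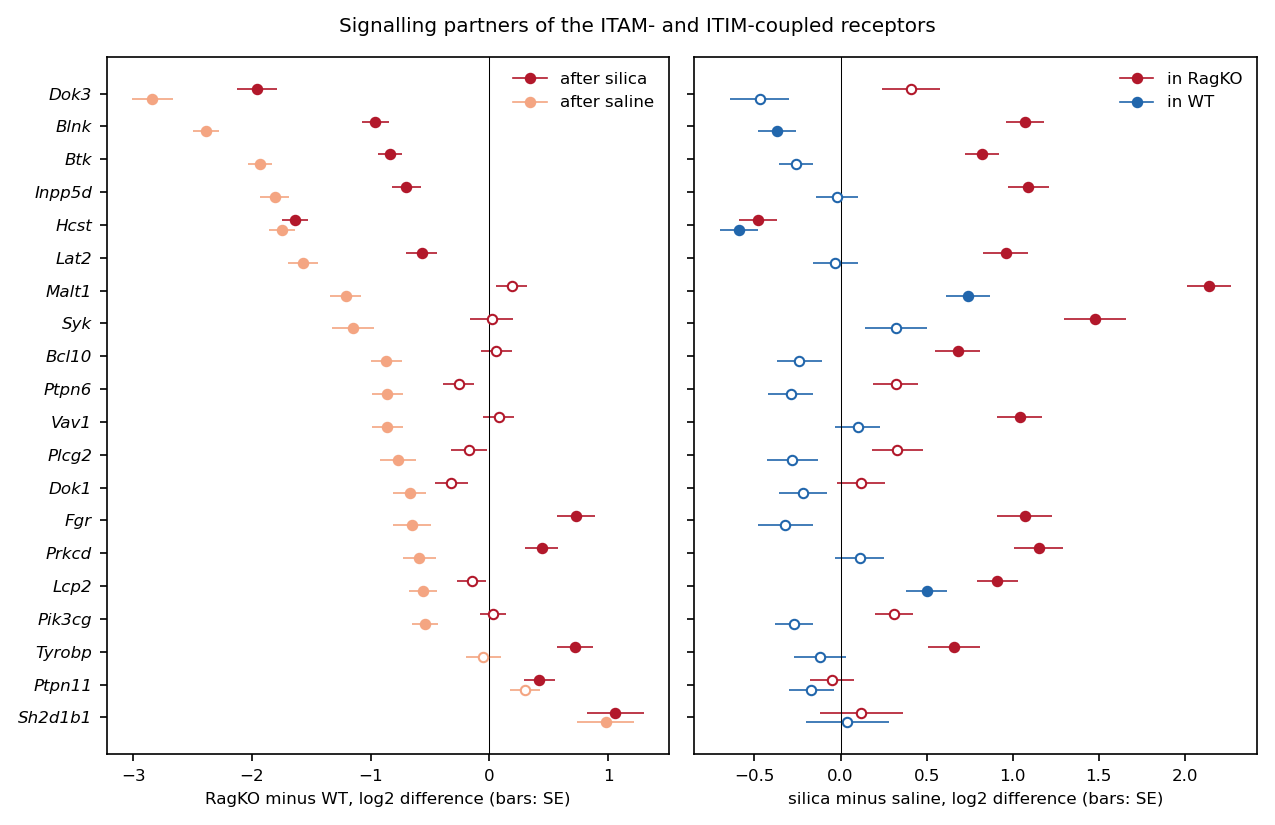
Log2 differences (x axes, bars SE) of the 20 measured signalling partners of ITAM and ITIM receptors (rows): left, RagKO minus WT after silica and after saline; right, silica minus saline in RagKO and in WT, filled where the adjusted p was under 0.05. In the left panel 17 genes are filled below 0 after saline, and in the right panel 12 are filled above 0 in RagKO.

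Of the 23 measured partners of the Toll-like receptors, 8 were higher and 5 lower in RagKO after silica, near the 33.7% and 26.4% of all genes, and 7 higher and 7 lower after saline, where 37.0% and 29.2% of all genes were. Silica raised 9 and lowered 1 in RagKO, against 16.8% and 15.9% of all genes. It raised 4 and lowered 4 in WT, against 11.5% and 8.21% (1 and 4 with quantile normalization, and between 3 and 9 calls when 1 array was left out, with 3 without WT saline replicate 1, 4 without WT saline replicate 2 and 5 without either WT silica array). Irf5, a transcription factor downstream of Myd88, read 1.94 and 1.4 in RagKO silica, -0.06 and -0.07 in RagKO saline, 2.57 and 2.46 in WT silica and 2.28 and 2.4 in WT saline leukocytes. The RagKO saline pair was lowest, with a difference of -2.41 (SE 0.16, adjusted p = 7.22e-07) against WT, and silica raised Irf5 in RagKO by 1.73 (SE 0.16, adjusted p = 8.33e-05). The interferon factor Irf7 rose by 2.09 (SE 0.23, adjusted p = 0.000183) in RagKO. Unc93b1, the chaperone that carries Tlr7 and Tlr9 to endosomes, was lower in RagKO after saline, with a difference of -1.44 (SE 0.11, adjusted p = 1.81e-06), and its silica effect was larger in RagKO by 1.03 (SE 0.16, adjusted p = 0.00138). Lbp went the other way. It was higher in RagKO after saline by 1.04 (SE 0.14, adjusted p = 8.33e-05) and rose with silica in WT by 1.21 (SE 0.14, adjusted p = 0.000481). The silica effect on Lbp in RagKO minus that in WT was -1.14 (SE 0.2, adjusted p = 0.00282). Of the 23 partners this difference was called more positive for 6 and more negative for 2, against 11.0% and 12.3% of all genes. Ly96 (MD-2), the partner of Tlr4, was higher in RagKO after silica by 1.33 (SE 0.15, adjusted p = 3.26e-05) and fell with silica in WT, with a difference of -0.82 (SE 0.15, adjusted p = 0.00394). It read 0.76 and 1.05 in RagKO silica and 1.38 and 1.19 in RagKO saline leukocytes. In WT it read -0.3 and -0.57 after silica and 0.49 and 0.29 after saline. The RagKO arrays of Ly96 thus lay above the WT arrays after saline as well.

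Of 21 other pattern receptors, 11 were higher and 5 lower in RagKO after silica, where 33.7% and 26.4% of all genes were, and 8 were higher and 8 lower after saline, close to the 37.0% and 29.2% of all genes. Silica raised 11 and lowered 2 in RagKO, against 16.8% and 15.9% of all genes, and raised 5 and lowered 1 in WT, against 11.5% and 8.21%, a WT count of 6 that was 2 without WT saline replicate 1 or without WT saline replicate 2. The scavenger receptor Marco, which binds silica particles, read 6.38 and 6.39 in RagKO silica, 4.1 and 4.11 in RagKO saline, 7.07 and 7.08 in WT silica and 6.57 and 6.56 in WT saline leukocytes. RagKO saline lay below all other arrays, with a difference of -2.47 (SE 0.1, adjusted p = 5.21e-08) against WT, and silica raised it by 2.28 (SE 0.1, adjusted p = 2.6e-06) in RagKO and 0.51 (SE 0.1, adjusted p = 0.00624) in WT. Msr1, a class A scavenger receptor, rose in RagKO by 1.26 (SE 0.11, adjusted p = 7.13e-05), and the cytosolic nucleic acid sensors Zbp1 and Dhx58 by 2.17 (SE 0.18, adjusted p = 4.48e-05) and 1.83 (SE 0.18, adjusted p = 0.000128). Cd36 went the other way, with 3.07 and 3.31 in RagKO silica and 4.1 and 4.21 in RagKO saline leukocytes. In WT Cd36 read 2.02 and 2.39 after silica and 1.45 and 1.47 after saline. RagKO exceeded WT after saline by 2.69 (SE 0.14, adjusted p = 1.87e-07). The silica effect on Cd36 in RagKO minus that in WT was -1.71 (SE 0.2, adjusted p = 0.000394). The effect of silica was more positive in RagKO for 7 of the 21 and more negative for 3, or for 9 and 2 with quantile normalization. Of all genes 11.0% were more positive and 12.3% more negative. The list of 4 measured sialic acid- and Fc-binding genes outside the symbol rule had 1 gene higher and 3 lower in RagKO after saline, and 1 higher and 1 lower after silica.

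Macrophage markers and some dendritic cell markers moved with the silica rises in RagKO, where 32.7% of all genes were called for silica (16.8% higher and 15.9% lower), against 19.7% in WT. Of 11 measured alveolar macrophage markers, which include Siglecf and Marco, silica raised 8 and lowered 1 in RagKO and raised 3 and lowered 3 in WT, with a mean of 4.19 and 4.41 in RagKO silica, 3.43 and 3.58 in RagKO saline, 4.05 and 4.0 in WT silica and 4.1 and 4.09 in WT saline leukocytes. Of 13 monocyte and interstitial macrophage markers it raised 7 and lowered 1 in RagKO and raised 1 and lowered 3 in WT, with a mean of 3.12 and 3.03 in RagKO silica, 2.3 and 2.37 in RagKO saline, 2.77 and 2.4 in WT silica and 2.78 and 2.75 in WT saline leukocytes. With quantile normalization the second list had 7 rises and 0 falls in RagKO. Without WT saline replicate 1 or without WT saline replicate 2 each list had 1 call for silica in WT, and the second list also had 1 without WT silica replicate 2. On both macrophage lists RagKO saline was lowest and RagKO silica highest. Of 8 measured conventional dendritic cell markers silica raised 4 and lowered 1 in RagKO and raised 2 and lowered 0 in WT, with a mean of 2.34 and 2.31 in RagKO silica, 1.85 and 1.75 in RagKO saline, 2.35 and 2.05 in WT silica and 1.88 and 1.91 in WT saline leukocytes, so the silica arrays lay above the saline arrays in both genotypes. The chemokine Ccl17 rose by 1.31 (SE 0.18, adjusted p = 0.000655) in RagKO and 1.49 (SE 0.18, adjusted p = 0.000588) in WT. In RagKO the lectin Mgl2 rose by 1.18 (SE 0.18, adjusted p = 0.00108), the chemokine receptor Ccr7 by 1.13 (SE 0.15, adjusted p = 0.00046) and the transcription factor Batf3 by 0.65 (SE 0.15, adjusted p = 0.0094). Other markers did not follow. The lowest silica difference in RagKO was -0.59, and Cst3 rose in WT by 0.84 (SE 0.18, adjusted p = 0.00908). The silica effect on Cst3 in RagKO minus that in WT was -0.89 (SE 0.25, adjusted p = 0.0279). Over the 8 markers this difference had a median of -0.03. It was called more positive for 3 and more negative for 1, against 11.0% and 12.3% of all genes. The 5 calls of this list in RagKO were 3 without RagKO silica replicate 1, and the 2 in WT were 1 without WT saline replicate 2. The part of these cells in the rises of Lilrb4a, Fcgr2b, Clec7a, Clec10a, Trem2, Clec5a, Fcgr1 and Clec4n was not tested.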

How the data were processed

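On each of 8 2-colour Agilent arrays, all in 1 dye orientation, leukocyte RNA carried Cy5 and the universal mouse reference Cy3, per the labels. The authors deposited 1 value per probe and array for 16251 probes. It was taken as a log10 ratio of Cy5 over Cy3: the direction comes from the dyes per the labels, and the base was inferred, since the largest deposited ratio is 737-fold read as log10 and 7.3-fold read as log2. The sources used here give no background correction, dye normalization, filter or intensity. Array medians spanned 0.0677 log2, so no scaling was added.

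The conversion to log2 used the factor 3.3219. Probes needed a value on every array (14716 did) and a single symbol in the platform's gene table, and averaging by gene gave 11597 genes. All were fitted in limma 3.58.1 (R 4.3.3) as 4 group means, with 4 residual degrees of freedom, and tested with Benjamini-Hochberg adjustment at 0.05. The median SE per gene was 0.13 between groups and 0.18 for the difference of silica effects. The fit was tested on simulated data with known changes.

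The members, gene lists and rules were chosen with earlier results of these data known. All members may be named. Values on every array are given for receptors chosen by name and for the 6 largest rises and 6 largest falls past the threshold in each comparison, and the other members by family. Up to 4 genes of another list are named per comparison by smallest p, and Tyrobp was added after its values were seen. Genes of lists are called by the same fit, and no test of a list was run. Alternatives were median centring, quantile normalization, a replicate block, 1 probe per gene, probes with missing values, a trended and robust variance, only the groups compared, each array left out and ratios read as log2.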

Additional observations from a re-analysis of the deposited data

Results flagged for a closer look

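The silica effect differed between genotypes, by the limma interaction test with adjustment over all genes, for 14 of the 41 receptor genes. The effect in RagKO minus that in WT (log2) was 1.95 for Lilrb4a (adjusted p = 0.0001), 1.81 for Clec10a (adjusted p = 0.000354), 1.72 for Fcgr2b (adjusted p = 0.00045), 1.48 for Trem2 (adjusted p = 0.00377), 1.17 for Clec5a (adjusted p = 0.00138) and 1.15 for Clec7a (adjusted p = 0.0025). It was 0.91 for Tlr1 (adjusted p = 0.00267), and 0.69 for both Tlr9 (adjusted p = 0.0182) and Lilra6 (adjusted p = 0.0153). Smaller values were 0.6 for Clec2i (adjusted p = 0.0188), 0.53 for Clec2g (adjusted p = 0.0337) and 0.47 for Siglecg (adjusted p = 0.0473). It was negative, at -0.69 for Clec1a (adjusted p = 0.0219) and -1.47 for Clec14a (adjusted p = 0.0414). Of the 14, Lilrb4a, Clec10a, Fcgr2b, Trem2, Clec7a and Tlr1 held under all alternatives run. The Siglecg call was lost under 11 of 15, among them leaving out RagKO silica replicate 2, which gave 0.39 (adjusted p = 0.114). The alternatives counted include ratios read as log2, a rescaling that could change no call. Without RagKO silica replicate 1 the value was -0.53 for Clec1a (adjusted p = 0.0605), 0.46 for Clec2g (adjusted p = 0.0893) and 0.53 for Clec2i (adjusted p = 0.0532). The 8 arrays were in groups of 2, too few to test any single array as an outlier.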

How the results depend on the processing

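No called difference of a receptor gene changed sign, 2802 recomputed results kept their side of the threshold, 79 gained a call and 153 lost it. Calls that held under every alternative were 25 of 33 for RagKO minus WT after silica, 25 of 33 after saline, 10 of 17 for silica in RagKO, 1 of 9 for silica in WT and 6 of 14 for the difference of silica effects. The alternative with 1 probe per gene kept a single probe, so it could not show that the Fcgr2b probes disagreed after saline. The WT silica count of 9 receptors was 16 with quantile normalization (1 higher, 15 lower), 16 with only the groups compared (5 higher, 11 lower) and between 2 and 13 when 1 array was left out. The difference of silica effects, with 14 receptors, ranged from 7 to 15 when 1 array was left out. For silica in WT, Toll-like receptor partners numbered 5 in place of 8 with quantile normalization and 3 to 9 with 1 array left out, ITAM and ITIM partners 0 to 5 in place of 4, and other pattern receptors 2 to 6 in place of 6. Toll-like receptor partners with a different silica effect numbered 5 to 9 in place of 8 with 1 array left out. Equal replicate numbers did not pair the arrays, since deviations of same-numbered arrays correlated between -0.0728 and 0.111. With the replicate block 33, 33, 18, 8 and 14 receptors were called for the comparisons in the order above. With 1 array left out, the lone array of a group is assumed to vary like the others. Weak spots could not be filtered without intensities.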

Other observations

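4 receptor genes lacked a value on 1 or 2 arrays and were fitted only with probes measured on at least 6 arrays. Each then had a group of 1 array, assumed in the limma fit to vary like the others, so the differences below have no replicate check in that group and no call is drawn from them. Tlr3, the sensor of double-stranded RNA, read 0.51 and 0.54 in RagKO silica, 0.63 and 0.95 in RagKO saline, 0.16 in WT silica replicate 1 and 0.03 in WT saline replicate 1. RagKO minus WT was 0.76 after saline (SE 0.17, limma adjusted p = 0.00425) and 0.37 after silica (adjusted p = 0.0965), each against 1 WT array. Fcer1a, the IgE-binding chain of mast cells and basophils, read 0.25 and 0.31 in RagKO silica, 0.61 and 0.64 in RagKO saline, -0.23 in WT silica replicate 1 and 0.08 in WT saline replicate 2. Its difference was 0.51 after silica (adjusted p = 0.0131) and 0.55 after saline (adjusted p = 0.00834), each likewise against 1 WT array. Cd209d, a relative of DC-SIGN, read 1.14 and 1.41 in RagKO silica, 1.05 and 1.11 in RagKO saline, 0.63 in WT silica replicate 2 and 1.13 and 1.16 in WT saline leukocytes. The silica effect in RagKO minus that in WT was 0.7 (SE 0.2, adjusted p = 0.0333) and rests on the single WT silica array. Pira2, an activating paired receptor, read 1.72 and 1.86 in RagKO silica, 1.25 in RagKO saline replicate 1, 1.89 and 1.53 in WT silica and 1.54 and 1.28 in WT saline leukocytes. It passed no test, with differences of 0.54 for silica in RagKO (adjusted p = 0.0556) and 0.3 in WT (adjusted p = 0.204).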
